A study of Mus musculus with 6 samples.

Results

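Small heat shock proteins were examined in quiescent muscle stem cells (qMuSCs) of cD2KO mice, bred to lose D2 in these cells, and of controls. D2 is the deiodinase that converts thyroxine into active thyroid hormone and is encoded by Dio2. The set held 8 of the 31053 genes counted, namely Hspb1, Hspb2, Hspb3, Hspb6, Hspb7, Hspb8, Cryab and their partner Bag3. Hspb7 was chosen from the contrast described here, as the gene with the smallest p of all those tested, and the others were listed as its relatives to ask whether they moved with it. The values of Hspb7 are therefore a description with no test, whereas the relatives were tested gene by gene. The cells were sorted by FACS for nuclear GFP driven by Pax7, the factor by which muscle stem cells are known, from resting hindlimb muscle of mice aged 3 to 4 months. The control mice (WT: c124, c129 and c130) had the genotype Pax7nGFP/+, Pax7+/+ and Dio2Fl/Fl. The cD2KO mice (fl125, fl126 and fl128) had the genotype Pax7nGFP/+, Pax7-CreERT2/+ and Dio2Fl/Fl. Both groups thus carried the reporter and floxed Dio2, and both received tamoxifen, which activates a recombinase made only in Pax7-expressing cells of the cD2KO mice. Effects of the Cre allele and of the loss of Dio2 cannot be told apart in this design. RNA was sequenced with 1 library per mouse, and every ± below is an SD between 3 mice unless marked as an SE.

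As background, small heat shock proteins are chaperones that work without ATP. They hold unfolding proteins in oligomers until Hsp70 machines refold or remove them. Striated and smooth muscle are rich in them, and filament proteins under tension are among their clients. Bag3 joins Hspb8 to Hsp70 and sends damaged filamin to lysosomes, a route named chaperone-assisted selective autophagy. Several family genes and Bag3 are induced by the heat shock factor Hsf1, which binds inverted repeats of the GAA unit.

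The promoters of the members are shown because the family is known for that shared control, and because the members differed in the data. Windows from 250 bases before to 50 bases after a transcription start were available from RefSeq (GRCm38.p6) for 6 of the 8 members, Hspb1, Hspb3, Hspb6, Hspb7, Hspb8 and Bag3. They were searched on both strands for GAANNTTC, the shortest inverted GAA repeat, a search chosen after the values of the members had been seen. The letters occurred in 5 of the 7 windows of these members and in 7.86% of all 32851 windows. By gene, 5 of the 6 members had a match, Hspb6 in 1 of its 2 windows. The stretches around each match are given 5′ to 3′ on the strand of the gene, with GAANNTTC in capitals.
Hspb1 (chr5:135887776-135887835, plus strand): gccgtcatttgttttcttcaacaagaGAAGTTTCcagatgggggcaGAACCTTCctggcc
Hspb6 (chr7:30553155-30553214, plus strand): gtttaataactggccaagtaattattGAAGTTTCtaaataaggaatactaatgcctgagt
Hspb8 (chr5:116422837-116422888, minus strand): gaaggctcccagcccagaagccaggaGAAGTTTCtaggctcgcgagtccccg
Bag3 (chr7:128523605-128523632, plus strand): aagttctctggatgggaccaGAAGTTTC
Hspb3 (chr13:113663867-113663926, minus strand): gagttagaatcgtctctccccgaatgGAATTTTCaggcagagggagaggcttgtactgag
Hspb1, Hspb6, Hspb8 and Bag3 held the same 8 letters, GAAGTTTC, and Hspb1 held another match, GAACCTTC. Counted from the start, the matches began at -117 and -97 in Hspb1, at 3 in Hspb8, at 43 in Bag3 and at -224 in Hspb3. In Hspb6 the match began at -120 before the second of its 2 RefSeq starts, in an intron of longer GENCODE transcripts. No match was found in the window of Hspb7. Its 250 bases before the start (chr4:141420529-141420778, plus strand) are given in full, with no capitals since none of the motifs searched occurred there.
Hspb7: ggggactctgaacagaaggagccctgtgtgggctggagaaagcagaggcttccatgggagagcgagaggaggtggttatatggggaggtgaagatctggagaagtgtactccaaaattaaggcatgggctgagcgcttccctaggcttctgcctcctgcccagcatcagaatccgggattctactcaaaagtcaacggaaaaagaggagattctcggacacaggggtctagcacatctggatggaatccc
The other motifs were also searched on both strands. A longer heat shock repeat that contains the first, GAANNTTCNNGAA, was in no member window and in 0.603% of all windows. The thyroid hormone response repeat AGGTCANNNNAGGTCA was in no member window and in 0.0152% of all windows, and its single unit AGGTCA was found in Hspb3 alone among the members, against 16.3% of all windows. The Mef2 sequence CTAAAAATA was in the window of Hspb1 and in 0.517% of all windows, and TATAAA was in those of Hspb3 and Hspb6 and in 13.6% of all. The CArG box bound by serum response factor was in no member window and in 1.63% of all. A match describes letters, and says nothing about whether a factor was bound.

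Total counts ranged from 2184073 to 3897787 per mouse, so that 3 counts, taken as the level not told apart from 0, stood for 0.768 to 1.36 CPM (counts scaled to a library of equal size with TMM factors). The stem cell markers fixed for the check were detected in full, with 10 of 10 genes above 0 in every group and summed levels of 1460 to 1916 CPM in WT and 1641 to 2828 CPM in cD2KO mice. Detection does not measure purity, since lists for other cells were detected too. Schwann cell markers summed to 4712 to 7018 CPM in WT and 6292 to 7218 CPM in cD2KO mice. Fibroadipogenic markers summed to 4075 to 6591 and 2550 to 5322 CPM. Such sums over unlike genes are not shares of cells. Dio2, the targeted gene, had counts of 21, 5 and 10 in c124, c129 and c130 and of 15, 5 and 1 in fl125, fl126 and fl128. WT mice averaged 3.56 ± 1.77 CPM and cD2KO mice 2.94 ± 3.41 CPM (two-sided exact permutation test, p = 0.7, where 0.1 is the smallest that 3 mice against 3 allow). After scaling, Dio2 was highest in the library labelled fl125, at 6.79 CPM against 5.38 CPM in c124. The counts of Dio2 therefore do not check the labels. Reads were counted over all of its exons, the floxed part not apart, so they do not show whether that part was deleted. Directions below are therefore those of the labelled groups. The labels give no litter or batch. Exact permutation p-values rest on the values of a gene in these 6 animals alone. Those of edgeR, the count model used below, also draw on the spread of the other genes tested.

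Hspb7 (ENSMUSG00000006221, chr4:141420779-141425311 of mm10, plus strand) encodes a chaperone of heart and skeletal muscle that associates with actin filaments and filamin C. Its WT levels were 86.5, 84.2 and 95.2 CPM in c124, c129 and c130. Its cD2KO levels were 219, 223 and 276 CPM in fl125, fl126 and fl128. The groups did not overlap, and the gap between them was wider than the range within either. The mean went from 88.6 ± 5.80 CPM to 239 ± 31.9 CPM, which was 1.43 ± 0.19 (SE) on the log2 scale. Leaving out each mouse in turn gave log2 fold changes of 1.32 to 1.53. These are the values that chose Hspb7, and they support nothing further.

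Of the 7 members abundant enough to be tested, 4 had higher levels in cD2KO qMuSCs, at an unadjusted p under 0.05 in edgeR's quasi-likelihood test, namely Hspb7, Hspb6, Hspb8 and Hspb1, and 0 were lower. Over all 11633 genes tested, 5.34% were called higher and 6.62% lower by the same rule, which are 621 and 770 genes. The first of these calls was fixed by the choice of Hspb7, which leaves 3 of 6 relatives. After Benjamini-Hochberg adjustment over all genes, Hspb7 was the single gene called higher (0.0086% of those tested), no relative passed, and 0 genes were called lower (175 in DESeq2 and 0 in limma voom, where 101 and 0 were higher). With fl128 left out, 402 genes were higher, and with fl125 left out, 933 were. With c129 left out, 399 were lower. Without Hspb7, the 3 cD2KO mice lay above the 3 WT mice in 3 of 6 relatives, beside 8.05% of all genes tested. The median log2 fold change of the 6 relatives was 0.32, and 5 of 6 were above 0. Over all genes the median was -0.02 and 48.1% were above 0. The members summed to between 0.136% and 0.152% of all counts in WT and between 0.177% and 0.201% in cD2KO mice. These sums include Hspb7, which was chosen from this contrast, and none was made without it.

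Hspb6, also known as Hsp20, is abundant in smooth and heart muscle and is phosphorylated by protein kinase A during relaxation (ENSMUSG00000036854, chr7:30552178-30555443, plus strand). Its level was 218, 108 and 141 CPM in c124, c129 and c130. It was 255, 259 and 488 CPM in fl125, fl126 and fl128. The groups did not overlap, although c124 came close to fl125 and fl128 stood far above the other two cD2KO mice. The means were 156 ± 56.7 and 334 ± 134 CPM. In edgeR the log2 fold change was 1.10 (standard error 0.31), with an adjusted p = 0.168. Without fl128 the log2 fold change was 0.72, and without c124 it was 1.42. The promoter of Hspb6 carried GAAGTTTC before its second start, as printed above. On the opposite strand Proser3 shares 122 exon bases with Hspb6 (5.31% of its exon length), and it had 92 counts over the 6 mice against 4427 of Hspb6.

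Hspb8, the small heat shock protein that Bag3 binds (ENSMUSG00000041548, chr5:116408491-116422864, minus strand), was at 70.9, 44.3 and 55.4 CPM in c124, c129 and c130. It was at 89.2, 86.9 and 111 CPM in fl125, fl126 and fl128. Every cD2KO mouse was above every WT mouse, with c129 lowest and fl128 highest, as for Hspb6 and Hspb7. The mean went from 56.9 ± 13.4 to 95.9 ± 13.6 CPM. On the log2 scale edgeR gave 0.75 (standard error 0.22), with an adjusted p = 0.173. It stayed between 0.62 and 0.94 when each mouse was left out, with an unadjusted p under 0.05 in 6 of 6 of these fits.

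Hspb1, or Hsp27, guards actin filaments and is expressed in most tissues (ENSMUSG00000004951, chr5:135887919-135889563, plus strand). WT levels were 408, 338 and 499 CPM in c124, c129 and c130, and cD2KO levels were 735, 573 and 512 CPM in fl125, fl126 and fl128. The groups were separate by a narrow margin, between c130 and fl128. With scaling to the total count they overlapped, with c130 at 511 and fl128 at 483 CPM (exact permutation test, p = 0.2). Here fl128 was the lowest cD2KO mouse, and not the highest as for Hspb6, Hspb7 and Hspb8. WT mice averaged 415 ± 81.1 CPM and cD2KO mice 607 ± 115 CPM. The log2 fold change was 0.55 (standard error 0.22), with an adjusted p = 0.353 in edgeR. An unadjusted p under 0.05 was kept in 2 of 6 fits with a mouse left out. It was lost without c124, c129, fl125 or fl126, where the log2 fold changes were 0.53, 0.44, 0.43 and 0.59. For Hspb6, Hspb8 and Hspb1, the exact permutation test of TMM-scaled CPM gave p = 0.1, the smallest it can give with 3 mice against 3.

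**Figure D1:**
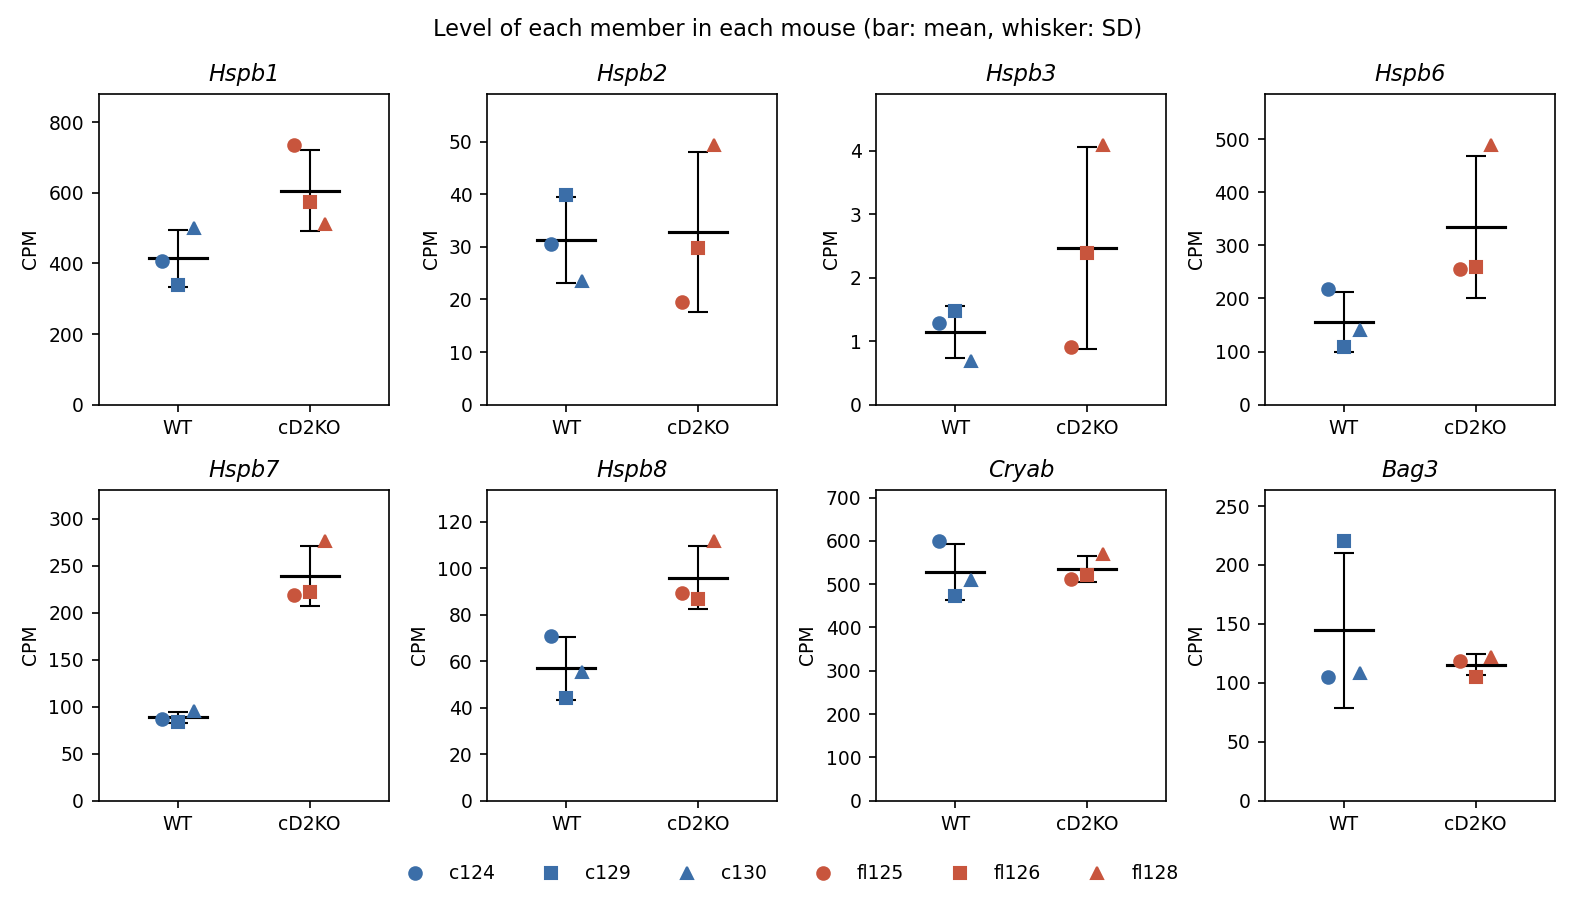
Level of the 8 members in CPM (vertical axis, linear and from 0) in the 3 WT mice (blue) and the 3 cD2KO mice (red), with a marker shape for each mouse. Bars are means and whiskers SDs. Hspb7, Hspb6, Hspb8 and Hspb1 do not overlap between the groups with this TMM scaling, whereas Cryab, Hspb2, Hspb3 and Bag3 do, and the WT mouse c129 stands alone for Bag3 at 220 CPM.

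Cryab, or αB-crystallin, binds desmin and other filaments and was among the most abundant members (ENSMUSG00000032060, chr9:50751325-50756636, plus strand). It was at 599, 473 and 510 CPM in c124, c129 and c130 and at 513, 522 and 569 CPM in fl125, fl126 and fl128. All 3 cD2KO mice lay within the WT range. The means of 527 ± 64.7 and 534 ± 30.0 CPM differed by 0.02 on the log2 scale (standard error 0.19, adjusted p = 0.982 in edgeR). An interval of 2 standard errors ran from -0.36 to 0.40, which leaves out changes as large as those of Hspb6 and Hspb8 on the log2 scale. It takes no account of the exon bases that Cryab shares with Hspb2, described below. The sign of this small value turned to -0.04 with scaling to total counts.

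Hspb2, a muscle member that binds the myotonic dystrophy kinase and pairs with Hspb3 (ENSMUSG00000038086, chr9:50751078-50752354, minus strand), was at 30.5, 39.9 and 23.5 CPM in c124, c129 and c130. In fl125, fl126 and fl128 it was at 19.5, 29.8 and 49.3 CPM. The cD2KO mice held both the lowest and the highest value of the 6. With 31.3 ± 8.20 and 32.8 ± 15.2 CPM the log2 fold change was 0.08 (standard error 0.34, adjusted p = 0.958 in edgeR), and 2 standard errors spanned -0.59 to 0.76. It was -0.34 without fl128 and -0.05 without c130. Hspb2 lies against Cryab on the opposite strand and shares 252 exon bases with it, which are 30.2% of the exon length of Hspb2 and 17.0% of that of Cryab. The use of strand in counting is not given in the sources used here, so the counts of both genes are uncertain, with the larger part of the exons affected in Hspb2. The ratio of Hspb2 to Cryab counts was 0.0604 ± 0.0208 in WT and 0.0606 ± 0.0246 in cD2KO mice, and it ranged from 0.0380 in fl125 to 0.0867 in fl128.

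Hspb3 (ENSMUSG00000051456, chr13:113662896-113663676, minus strand) was near the detection limit, with counts of 5, 4 and 2 in c124, c129 and c130 and of 2, 7 and 13 in fl125, fl126 and fl128. Its mean normalized count of 5.23 was below the minimum of 10, and it was not tested with the others. WT mice averaged 1.15 ± 0.408 CPM and cD2KO mice 2.46 ± 1.59 CPM (exact permutation test, p = 0.3), with fl125 inside the WT range. Without the minimum, edgeR gave 1.13 on the log2 scale with a standard error of 1.27 (adjusted p = 0.778), so that no difference was detectable at this depth. The remaining small heat shock protein genes were not expressed above the limit. Cryaa, the lens crystallin, had 3 counts in c124 and 0 elsewhere, and Hspb9 and Odf1, which belong to testis, had 0 counts in all mice.

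Bag3, the co-chaperone, was not called in either direction (ENSMUSG00000030847, chr7:128523616-128546981, plus strand). It was at 105, 220 and 108 CPM in c124, c129 and c130 and at 119, 105 and 122 CPM in fl125, fl126 and fl128. Apart from c129, the mice of both groups lay between 105 and 122 CPM. The WT mean of 144 ± 65.5 CPM and the cD2KO mean of 115 ± 8.95 CPM differed by -0.32 on the log2 scale (standard error 0.27, adjusted p = 0.700 in edgeR). An interval of 2 standard errors ran from -0.86 to 0.21. Without c129 the log2 fold change turned to 0.13. This mouse also had the highest levels of the inducible Hsp70 genes, with Hspa1a at 3132 CPM against 823 to 1583 CPM and Hspa1b at 2386 CPM against 572 to 1344 CPM in the other 5 mice. The Hsp40 gene Dnajb1 was at 351 CPM in c129 and at 189 CPM or less in the others. Genes induced by tissue dissociation, a fixed list of 19 that includes Fos, Jun and these 3 chaperones, summed to 15583 CPM in c129 and to between 5290 and 8796 CPM in the other mice. Their part in the level of Bag3 was not tested.

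**Figure D2:**
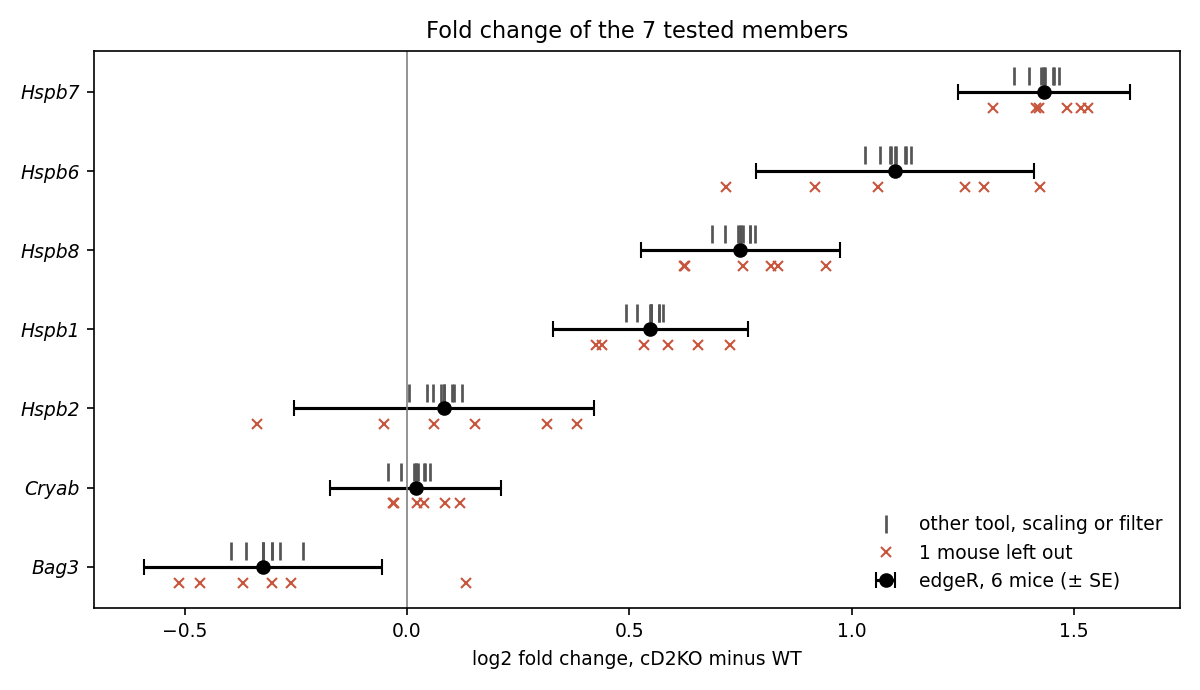
Log2 fold change of cD2KO over WT (horizontal axis) for the 7 members tested, with the edgeR estimate from all 6 mice as a black point ± SE, other tools, scalings and filters as grey ticks, and fits without 1 mouse as red crosses. Hspb7, Hspb6, Hspb8 and Hspb1 stay right of 0 throughout, Cryab and Hspb2 lie around 0, and Bag3 is left of 0 except at 0.13 without c129.

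The order of levels within the family was compared per kilobase of exon. In WT mice Hspb1 led with 402 CPM per kb and Cryab followed with 357, and the ranges of these neighbours overlapped. Hspb6 (67.8), Bag3 (56.4), Hspb2 (37.5), Hspb7 (32.0) and Hspb8 (29.2 CPM per kb) came next, each overlapping its neighbour in the order. Hspb3 was last with 1.47 CPM per kb, below the lowest mouse of every other member. In cD2KO mice the top 4 were separate, with Hspb1 at 588, Cryab at 361, Hspb6 at 145 and Hspb7 at 86.4 CPM per kb. Hspb8 (49.2), Bag3 (45.0) and Hspb2 (39.4 CPM per kb) overlapped their neighbours, and Hspb3 was at 3.15 CPM per kb. Between the groups 4 members each moved by 2 places, with Hspb7 and Hspb8 going up and Bag3 and Hspb2 down. These levels assume that reads fall along whole transcripts, and the labels name a digital RNA-seq service without saying so. Per library alone, without the length, Cryab led in WT and Hspb1 in cD2KO mice. Among all genes tested, Cryab and Hspb1 stood at percentiles 98.3 and 98.2 by mean CPM, Hspb6 at 95.2, Hspb7 at 91.8, Bag3 at 89.1, Hspb8 at 80.4 and Hspb2 at 56.8.

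Ratios of counts within a library, which need no scaling between libraries, were computed after the values had been seen and are given without a test. Hspb7, Hspb6 and Hspb8 already separated the groups and Cryab and Bag3 did not, so the separation of their ratios adds no support. Hspb7 counts per Cryab count were 0.145, 0.178 and 0.187 in c124, c129 and c130 and 0.427, 0.427 and 0.485 in fl125, fl126 and fl128. Hspb7 made up 5.70% to 6.64% of the counts of all members in WT and 11.2% to 12.9% in cD2KO mice, while the share of Cryab was 35.6% to 39.4% and 26.3% to 29.0%. The level of Cryab itself hardly differed, with means of 527 and 534 CPM. Hspb6 counts per Cryab count were 0.365, 0.228 and 0.277 in the WT mice and 0.497, 0.496 and 0.859 in the cD2KO mice. The ratio of Hspb8 to its partner Bag3 was 0.676, 0.201 and 0.511 in WT and 0.752, 0.827 and 0.915 in cD2KO mice, again without overlap, and its lowest value belonged to c129. Hspb1 per Cryab overlapped between the groups, at 0.791 ± 0.163 and 1.14 ± 0.268.

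**Figure D3:**
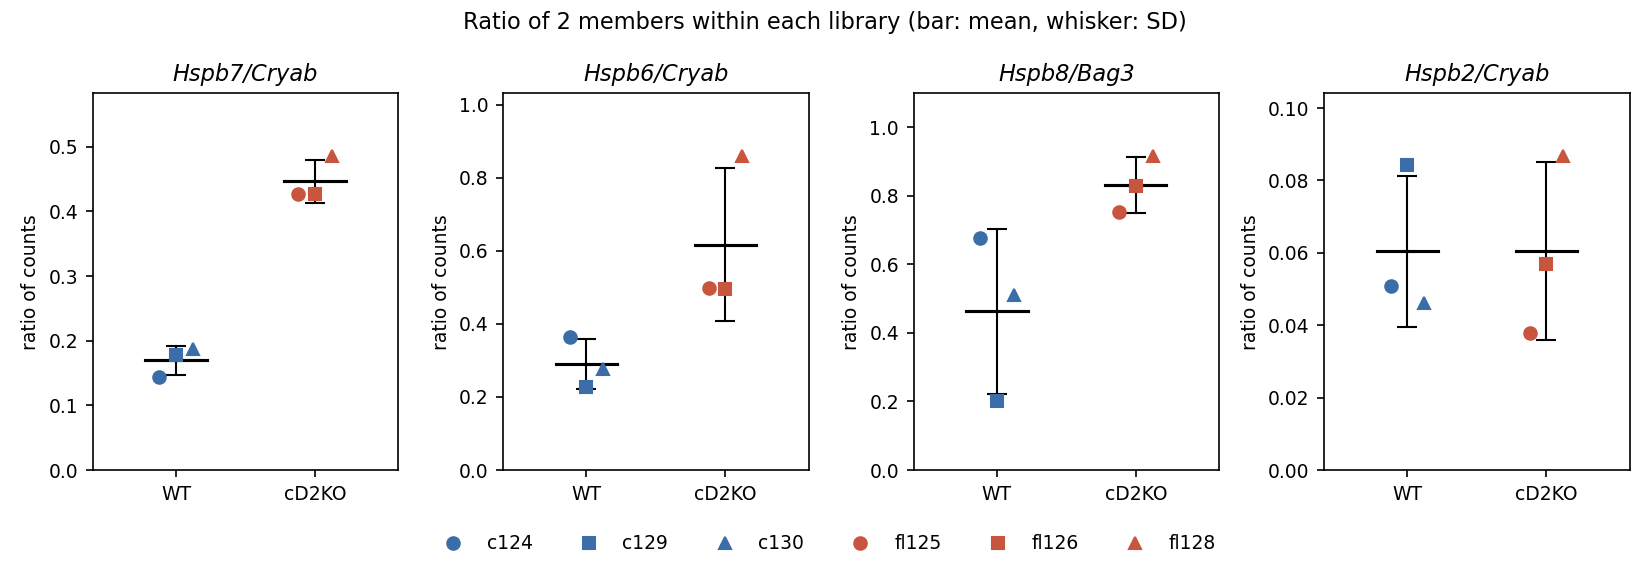
Counts of a member divided by counts of another in the same library (vertical axes, no unit, from 0), for each WT mouse (blue) and cD2KO mouse (red), with means as bars and SDs as whiskers. Hspb7/Cryab, Hspb6/Cryab and Hspb8/Bag3 do not overlap between the groups, and Hspb2/Cryab overlaps, with the lowest and the highest value both in cD2KO mice. The ratios were computed after the values of the members had been seen.

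The machinery around the family was read from fixed lists, by counts and medians. Beside the counts of these lists and of the marker lists below, 5.34% of all genes tested were called higher and 6.62% lower. Of 5 other Bag genes tested, 0 were called in either direction (median log2 fold change 0.18). Bag2 was at 0.51, Bag1 at 0.30, Bag6 at 0.18, Bag5 at -0.11 and Bag4 at -0.27, each within 2 standard errors of 0. Among 23 partners of chaperone-assisted selective autophagy, 3 were higher and 1 lower, with a median of 0.06. Synpo2, the adaptor that brings Bag3 to filamin and autophagosomes, was at 136, 138 and 102 CPM in WT and 189, 206 and 270 CPM in cD2KO mice, without overlap (log2 fold change 0.82, adjusted p = 0.124 in edgeR). Flna, a filamin, also separated the groups, at 962 to 1250 and 1617 to 2528 CPM (0.82, adjusted p = 0.139). Stub1, the ubiquitin ligase CHIP, had a log2 fold change of 0.60 (adjusted p = 0.331) and overlapped between the groups, since c129 at 193 CPM was above fl125 at 173 CPM. Hspa1b was the lower gene, at -1.08 (adjusted p = 0.354), and 0 partners were lower without c129, fl125 or fl128, 2 without fl126 and 3 without c124. Hspa8, the constitutive Hsp70, averaged 507 CPM and 610 CPM in WT and cD2KO mice and was not called (adjusted p = 0.766).

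Of 21 Hsf factors and targets listed, 20 were tested, 1 was higher and 1 was lower, beside 5.34% and 6.62% of all genes tested. In this list 7 were above 0, with a median log2 fold change of -0.07. The higher gene was Fkbp4, a co-chaperone of Hsp90 (0.51, adjusted p = 0.340 in edgeR), and the lower was again Hspa1b. Without c124 3 genes were lower, without fl126 2 were, and without c129, fl125 or fl128 0 were. Without fl126 0 were higher. Hspa1a at -0.79 and Dnajb1 at -0.61 were not called. Hsf1 itself averaged 31.5 and 38.0 CPM in WT and cD2KO mice and was not called (adjusted p = 0.776). Of 8 clients of small heat shock proteins, 3 were higher and 0 lower, with a median of 0.49. These were the intermediate filament genes Des (log2 fold change 0.95, adjusted p = 0.130) and Synm (0.66, adjusted p = 0.212) and the Z-disc gene Actn2 (0.92, adjusted p = 0.369). Without fl128, 1 client was called. Flnc, the filamin that Hspb7 binds, averaged 35.3 and 29.6 CPM in WT and cD2KO mice (log2 fold change -0.26, adjusted p = 0.794).

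Of the markers of other cells, some were higher in cD2KO mice, like Hspb7, Hspb6, Hspb8 and Hspb1, and others were lower. Among 15 fixed markers of mural cells, the pericytes and smooth muscle cells of vessels, 8 were higher, 0 lower and 12 above 0. Their median log2 fold change was 0.75, or 0.54 without fl128. The markers summed to 8122 to 12954 CPM in WT and 16403 to 24053 CPM in cD2KO mice, and none of them was at 0. The contractile genes Cnn1 (1.44), Tagln (0.95), Mylk (1.02), Myh11 (from 2179 to 4347 CPM) and Lmod1 (0.76) had the smallest p among the 8 (adjusted p from 0.0885 to 0.130 in edgeR). Acta2 (1.17), Des (0.95) and Notch3 (0.75) were the others called. The other genes of the list were not called. Among them Rgs5 averaged 1456 and 1460 CPM in WT and cD2KO mice. Log2 fold changes were -0.06 for Pdgfrb, -0.23 for Abcc9 and -0.36 for Kcnj8. They were 0.25 for Cspg4, 0.34 for Higd1b and 0.43 for Ndufa4l2. The calls were thus mainly of contractile genes. Des stands in both the mural and the client list. By the summed mural markers the mice ranked c129, c130, c124, fl125, fl126 and fl128 from lowest to highest. Abundant contractile genes weigh most in this sum, with Acta2, Myh11 and Mylk at 7893, 6092 and 4517 CPM in fl128. Not all markers followed that order. Rgs5 was at 2148, 1153 and 1069 CPM in c124, c129 and c130 and at 2317, 1223 and 840 CPM in fl125, fl126 and fl128. Abcc9 and Kcnj8 were highest in c124 and likewise fell from fl125 to fl128. Hspb6 ranked the mice in the same order as the sum, and Hspb8 and Hspb7 each differed from it by 1 exchange of neighbours. These 3 genes and the sum all separate the groups, so only the order within each group was free to differ. Hspb1 did not follow the order of the sum within cD2KO mice, where fl125 was highest, and Cryab had its highest level in the WT mouse c124. The part of mural cells in the levels of the members was not tested. In sorted bulk RNA, fewer or more cells of a type and less or more RNA per cell cannot be told apart.

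Of 17 muscle fiber markers, 1 was higher (Myh2, log2 fold change 0.70, adjusted p = 0.418 in edgeR) and all 17 were above 0, with a median of 0.52. Their sums were 2826 to 6113 CPM in WT and 5037 to 9205 CPM in cD2KO mice, with overlap. The number called was 0 without c130 or fl128 and 8 without c129 or fl125. Of the dissociation genes, 9 of 19 were lower and 0 higher, with a median of -0.79, among them Btg2 (-1.30), Dusp1 (-0.78), Ier2 (-1.26) and Socs3 (-0.70) beside Hspa1b. That count was 1 without c129, 2 without fl128, 4 without fl125 and 15 without c124. Of 14 immune markers, 3 were lower and 0 higher (Ptprc, Itgam and Cd68), with a median of -1.91 and sums of 4506 to 8401 CPM in WT and 228 to 2940 CPM in cD2KO mice. The mouse fl125 had the lowest sum, and without it 13 were called, whereas 1 was called without fl128. Endothelial markers had 6 of 11 and fibroadipogenic markers 3 of 10 lower and 0 higher (medians -1.24 and -0.57), and Schwann cell markers had 1 of 8 lower (0.02). Among 10 stem cell markers, Itga7, Cdh15 and Myf5 were higher and Cxcr4 was lower (median 0.27), and without fl125 1 was higher. Pax7 had a log2 fold change of 0.47 (adjusted p = 0.623) and Myod1 of -0.07 (adjusted p = 0.959). The part of these cells and of dissociation in the members' values was not tested.

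**Figure D4:**
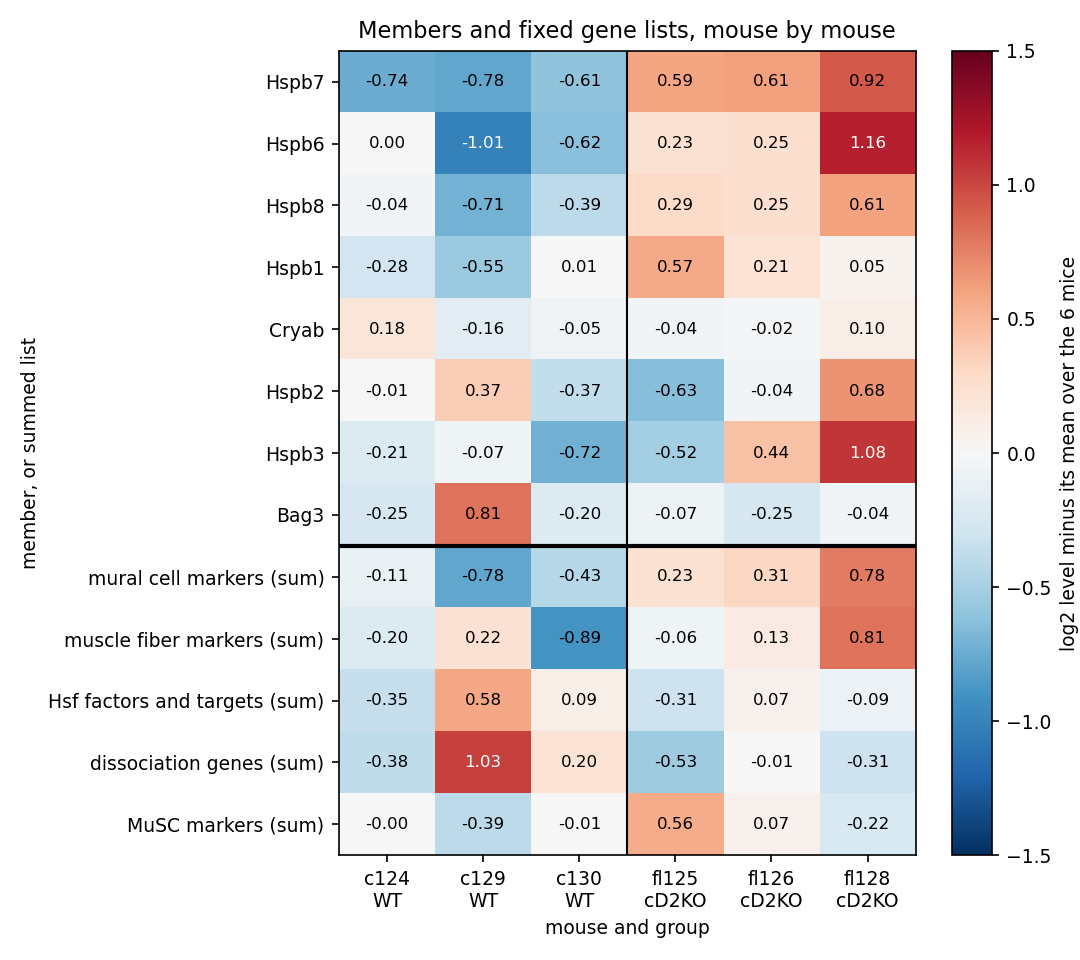
Log2 level in each mouse minus the mean over the 6 mice (color, printed in each cell) for the 8 members and, below the line, for the summed CPM of 5 fixed gene lists, with WT mice left and cD2KO mice right. Hspb7, Hspb6, Hspb8 and the mural sum go from low in WT to high in cD2KO mice, and Bag3, the Hsf targets and the dissociation genes share their highest value in c129.

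Likeness of pattern was measured as the root mean square difference of centred log2 CPM over the 6 mice, a description in which all genes share the same libraries. Within the family Hspb6 and Hspb8 were nearest (0.276), followed by Hspb1 and Hspb8 (0.327), Hspb2 and Hspb3 (0.358), and Cryab and Hspb1 (0.365). Hspb7 was at 0.380 from Hspb8, 0.395 from Hspb6, 0.513 from Hspb1, 0.709 from Cryab and 0.918 from Bag3. Outside the family the genes nearest to Hspb7 were Brinp2 (0.179), P2rx5 (0.191), Rnd2 (0.192), Adcy5 (0.198) and Jph2 (0.200), of which Jph2 encodes a junctophilin of muscle membranes and Adcy5 an adenylyl cyclase. Jph2 was the most abundant of these, with means of 173 and 378 CPM, and Brinp2 the least, at 2.03 and 8.14 CPM. Nearest to Cryab, which was nearly flat, were Ppp6c, Zbtb4, Fbxw2, Brix1 and Dgkd, at 0.0359 to 0.0528. Nearest to Bag3 were Gatb (0.0729), Tuba8, Ulk2, the Hsp40 gene Dnajb4 (0.111) and Lrp5, which like Bag3 were highest in c129.

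Hspb7 lies on chromosome 4, with its start 1.59 Mb from that of Pax7. The labels write Pax7-CreERT2/+ for cD2KO and Pax7+/+ for WT mice, and where CreERT2 was inserted is not given in the sources used here. Of 77 genes starting within 2 Mb of Hspb7, 30 were tested, and 2 were higher (Tmem51 and Prdm2) and 2 lower (Rcc2 and Casp9) at an unadjusted p under 0.05 in edgeR. The higher ones were 6.67% of the 30, beside 5.34% of all genes tested, and the median log2 fold change was 0.14. For Tmem51, Prdm2, Rcc2 and Casp9 the log2 fold changes were 0.56, 0.50, -0.69 and -0.77. The part of the Pax7 locus in the level of Hspb7 was not tested. The other members lie on chromosomes 5, 7, 9 and 13.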

How the data were processed

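RNA of FACS-sorted Pax7-nGFP qMuSCs from 3 WT and 3 cD2KO mice was sequenced with 1 library per mouse. The authors aligned reads to mm10 and deposited whole-number read counts for each gene, which they had not normalized. The submitters' processing notes name bcl2fastq, STAR 2.6.0a and HTSeq 0.9.1. Which annotation was used, whether strand was, and what was done with duplicates are not given in the sources used here. Groups came from the genotype in the labels.

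Here, 11633 of 31053 genes passed a minimum mean of 10 counts after DESeq2 scaling. Their deposited counts were scaled by TMM and compared in R 4.3.3 by the robust quasi-likelihood test of edgeR 4.0.16, with no covariate. Calls were made at an unadjusted p under 0.05, the study's line, and a Benjamini-Hochberg adjustment covered all genes tested. For CPM of single genes, exact permutation tests (two-sided) were used. Scripts were tested on simulated data. Symbols and positions came from GENCODE M21, in which 31011 gene identifiers were found, and sequences from RefSeq. At this depth, 3 counts stood for 0.768 to 1.36 CPM, counting error alone being considered.

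The members and gene lists were chosen with earlier results of these data known. The genes named are the members, Dio2, Pax7, Myod1, the remaining small heat shock proteins, up to 5 called genes of a list in each direction by p, and the 5 genes most like Hspb7, Cryab and Bag3. Hspa1a, Dnajb1, Hspa8, Hsf1, Flnc, Bag1, Bag2, Bag4, Bag5, Bag6, Fos, Jun, Proser3, Acta2 and Des were named after their values were seen. So were Notch3, Rgs5, Pdgfrb, Abcc9, Kcnj8, Cspg4, Higd1b, Ndufa4l2 and the called genes near Hspb7. As alternatives, the DESeq2 1.42.0 Wald test, limma 3.58.1 voom, other scalings and filters, non-robust estimation and leaving out each mouse were run.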

Additional observations from a re-analysis of the deposited data

How the results depend on the processing

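The direction of the log2 fold changes of Hspb7, Hspb6, Hspb8 and Hspb1 was kept in all 15 alternatives. With other tools, scalings and filters their log2 fold changes were 1.37 to 1.47, 1.03 to 1.13, 0.69 to 0.78 and 0.49 to 0.58. At an adjusted p under 0.05, 1 gene and 1 member, Hspb7, were higher and 0 genes were lower in edgeR, against 101 and 175 genes in the DESeq2 Wald test, 0 and 0 in limma voom, and 200 and 310 in edgeR with no minimum. The adjusted p of Hspb7 ranged from 1.85e-07 to 0.382 and was under 0.05 in 9 of 15 alternatives. Hspb7 was chosen by its p in this contrast, so this count is a description and supports nothing further. Of the relatives, the adjusted p of Hspb6 ranged from 1.33e-04 to 0.546 (2 of 15), and that of Hspb8 from 0.0370 to 0.562 (1 of 15). Unadjusted, 939 genes were higher with no minimum, where more genes were tested, and 505 were lower with a minimum mean of 50, where fewer were. Leaving out each mouse gave 402 to 933 higher genes, 399 to 874 lower genes, 3 to 4 higher members, and log2 fold changes of -0.34 to 0.38 for Hspb2 (-0.05 without c130), -0.03 to 0.12 for Cryab and -0.51 to 0.13 for Bag3. The difference in Dio2 CPM, -0.62 with all mice, ranged from -2.55 to 0.690 and was 0.285 without c124. Cryab was at -0.0436 with scaling to the total count, -0.0146 with a minimum mean of 50 and -0.0317 without c129, and the CPM differences of Hspb2 and Cryab turned to -0.258 and -15.9 with scaling to the total count. Apart from these, the cause of such changes was not tested. With 3 mice a group and 2184073 to 3897787 counts per mouse, Hspb3, with 2 to 13 counts, lay near the limit of 3 counts. No paired analysis was possible because the labels give the mice names and no replicate numbers shared between the groups.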
